A study of Mus musculus with 31 samples.

Results

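The Hox genes are described here across mouse kidneys that differed in Nbl1 genotype and in exposure to cisplatin. The members are every row of the deposited table whose symbol is Hox, a letter from a to d and a number, which gave 39 of 55487 genes: 11 in the Hoxa cluster on chromosome 6, 10 in Hoxb on chromosome 11, 9 in Hoxc on chromosome 15 and 9 in Hoxd on chromosome 2 (GRCm38). No measured value entered that rule. Of the 39 members, 31 passed the filter on low counts and could be tested (10 Hoxa, 8 Hoxb, 7 Hoxc and 6 Hoxd genes).

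The kidneys came from male mice of the B6 background, 1 RNA library per animal number, in 4 groups: 8 Nbl1 HET mice given cisplatin, 7 Nbl1 HET mice given phosphate-buffered saline (PBS), 8 wild-type (WT) mice given cisplatin and 8 WT mice given PBS. Cisplatin, a platinum compound used against tumours, damages DNA and is toxic to kidney tubules. Treatment began at 8 weeks of age and ran for 4 weeks, and the kidneys were taken 3 days later at a stated age of 11 weeks, which these figures do not add up to. No source used here states the dose or the type of Nbl1 allele.

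Hox genes encode homeodomain transcription factors that give cells of the embryo their position along the body axis. They lie in 4 clusters that arose by duplication, so that genes with the same number in different clusters are paralogs, and low-numbered genes act further forward than high-numbered ones. In the mouse the Hox11 paralogs are needed together for the metanephric kidney to form, the Hox10 paralogs act in its stroma, and adult kidney cells keep expressing many Hox genes.

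HET cisplatin libraries held 26869034 to 31915040 counts in total, HET PBS libraries 29231845 to 36696042 counts, WT cisplatin libraries 24650858 to 28862731 counts and WT PBS libraries 29845567 to 37301170 counts. Nbl1 itself averaged 7.34 ± 4.73 CPM (counts scaled to a TMM-adjusted library total of 1000000) in HET cisplatin, 2.72 ± 1.7 CPM in HET PBS, 20.6 ± 4.82 CPM in WT cisplatin and 6.37 ± 1.3 CPM in WT PBS (SD, n = 8, 7, 8 and 8). In 5 libraries the reads went against the genotype label: HET cisplatin 3 and 4 and HET PBS 1 and 6 had 37, 31, 3 and 13 Nbl1 counts (1.08, 0.861, 0.106 and 0.434 CPM, well below their group means), and WT PBS 6 had 0.756 CPM of Htr6, which was otherwise seen almost wholly in libraries labelled HET. Cisplatin and PBS libraries separated on the first principal component (85.2% of the variance). HET cisplatin 6 and WT cisplatin 6 scored 10.3 and 18.8 on it, nearest to the PBS libraries, while the other cisplatin libraries scored 33.4 to 62.0 and the PBS libraries -48.8 to -40.7. In HET cisplatin 4 the adrenal cortex markers summed to 698 CPM, against at most 3.43 CPM in any other library. Without that library 15 Hox genes were higher and 3 lower under cisplatin in HET, where all libraries gave 16 and 3.

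Windows of 250 bases upstream of the RefSeq start (GRCm38.p6) could be matched for 22 of the 39 members, 17 of them tested. Those of 5 members whose changes under cisplatin are described below, and whose start matches the GENCODE M21 start within 1 base, are printed to show what lies before genes of different clusters that rose (Hoxa11, Hoxb4, Hoxb8 and Hoxd11) and before a gene with a lower CPM (Hoxa10). The windows are Hoxa10 chr6:52240855-52241104 on the minus strand, Hoxa11 chr6:52245811-52246060 on the minus strand, Hoxb4 chr11:96318017-96318266 on the plus strand, Hoxb8 chr11:96281655-96281904 on the plus strand and Hoxd11 chr2:74679308-74679557 on the plus strand. Capitals mark matches on either strand to the searched letters TATAAA for the TBP box, CCAAT for the NF-Y box, GGGCGG for the Sp1 box, AGGTCA for the nuclear receptor site, TGATNNAT for the PBX-HOX site and TTTATG for the CDX site. None of the marked matches overlap.
Hoxa10: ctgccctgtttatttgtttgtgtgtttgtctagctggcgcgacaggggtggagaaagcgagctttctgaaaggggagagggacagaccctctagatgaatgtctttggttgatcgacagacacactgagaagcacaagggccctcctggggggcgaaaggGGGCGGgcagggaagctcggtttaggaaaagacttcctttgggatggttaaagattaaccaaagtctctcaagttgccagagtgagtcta
Hoxa11: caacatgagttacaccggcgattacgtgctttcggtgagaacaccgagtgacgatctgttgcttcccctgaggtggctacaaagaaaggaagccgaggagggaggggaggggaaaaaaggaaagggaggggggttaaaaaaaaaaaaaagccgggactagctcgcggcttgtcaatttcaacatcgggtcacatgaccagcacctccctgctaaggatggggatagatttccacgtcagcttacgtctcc
Hoxb4: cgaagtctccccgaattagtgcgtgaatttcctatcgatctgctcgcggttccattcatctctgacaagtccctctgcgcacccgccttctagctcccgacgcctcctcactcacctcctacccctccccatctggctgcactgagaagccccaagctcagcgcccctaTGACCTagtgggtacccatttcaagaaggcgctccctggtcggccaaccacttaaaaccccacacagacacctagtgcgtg
Hoxb8: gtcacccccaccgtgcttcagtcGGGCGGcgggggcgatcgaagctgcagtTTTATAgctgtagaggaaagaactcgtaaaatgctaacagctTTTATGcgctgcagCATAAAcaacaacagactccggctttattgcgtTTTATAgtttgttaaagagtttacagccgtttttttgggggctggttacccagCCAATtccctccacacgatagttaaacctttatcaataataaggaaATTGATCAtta
Hoxd11: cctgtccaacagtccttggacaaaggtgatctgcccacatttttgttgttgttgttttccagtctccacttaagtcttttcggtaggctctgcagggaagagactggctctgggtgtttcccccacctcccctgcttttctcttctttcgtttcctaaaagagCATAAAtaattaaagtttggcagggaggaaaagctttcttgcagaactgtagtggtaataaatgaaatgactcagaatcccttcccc
The Hoxb8 window held matches to 5 of the 6 motifs and the Hoxa11 window to none. The CDX letters stood in 5 of the 22 Hox windows, against 10.8% of 32851 windows of all genes, and the nuclear receptor letters in 6 of 22, against 14%. The NF-Y box stood in 13 of 22 windows against 33.8% of all, the Sp1 box in 9 against 32.7%, the TBP box in 3 against 12.4% and the PBX-HOX letters in 3 against 7.68%. The Hox windows had a median GC content of 56.8%, and all windows one of 52.4%. A match is a description of these letters and not evidence of a bound site.

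In the levels per transcript length (TPM, scaled to a total of 1000000 per library), Hoxd8 was the most abundant Hox gene in every group and its range did not overlap that of the next gene. It averaged 41.8 ± 3.63 TPM in HET cisplatin, 26 ± 3.8 TPM in HET PBS, 45.8 ± 4.93 TPM in WT cisplatin and 25.9 ± 1.77 TPM in WT PBS (SD). Hoxb9 stood at rank 2 in both cisplatin groups, with 19.2 ± 3.24 TPM in HET and 21.1 ± 4.05 TPM in WT, against rank 12 in both PBS groups, with 4.91 ± 0.86 TPM in HET and 4.9 ± 0.303 TPM in WT. In both cisplatin groups its range overlapped that of the next gene, Hoxb6, which averaged 18.1 ± 3.94 TPM in HET and 20.6 ± 3.64 TPM in WT.

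In PBS kidneys ranks 2 to 4 were held by 3 genes of the Hoxa cluster whose ranges overlapped. Hoxa9 averaged 13.1 ± 2.36 TPM in HET PBS and 13.6 ± 1.29 TPM in WT PBS, Hoxa10 averaged 12.5 ± 1.62 and 13.6 ± 0.61 TPM there, and Hoxa7 averaged 12.3 ± 1.04 and 13.9 ± 1.24 TPM. Most neighbours in the order of levels overlapped in every group. At the low end of the tested genes, Hoxc11 averaged 0.46 ± 0.15 TPM in HET cisplatin, 0.196 ± 0.0735 TPM in HET PBS, 0.436 ± 0.134 TPM in WT cisplatin and 0.221 ± 0.0698 TPM in WT PBS, and did not overlap the highest of the untested genes.

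Summed over each cluster, the Hoxb genes supplied 37.6 ± 3.7% of all Hox TPM in HET cisplatin kidneys, against 26.2 ± 1.89% in HET PBS kidneys, and 39 ± 2.75% in WT cisplatin kidneys, against 26.4 ± 1.03% in WT PBS kidneys (SD). The Hoxa share was 22.8 ± 1.53% in HET cisplatin, against 31.5 ± 1.67% in HET PBS, and 21.7 ± 2.21% in WT cisplatin, against 32.5 ± 0.696% in WT PBS. Hoxd genes held 28.6 ± 2.99% in HET cisplatin and 30.5 ± 1.9% in HET PBS, and 28.9 ± 1.04% in WT cisplatin and 29.1 ± 2.19% in WT PBS. Hoxc genes held 11 ± 0.842% in HET cisplatin and 11.7 ± 0.398% in HET PBS, and 10.4 ± 0.751% in WT cisplatin and 12 ± 1.09% in WT PBS. These shares are formed within a library and do not depend on how libraries were scaled to each other. Hoxb thus held the largest share in both cisplatin groups and the third largest in both PBS groups.

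**Figure D1:**
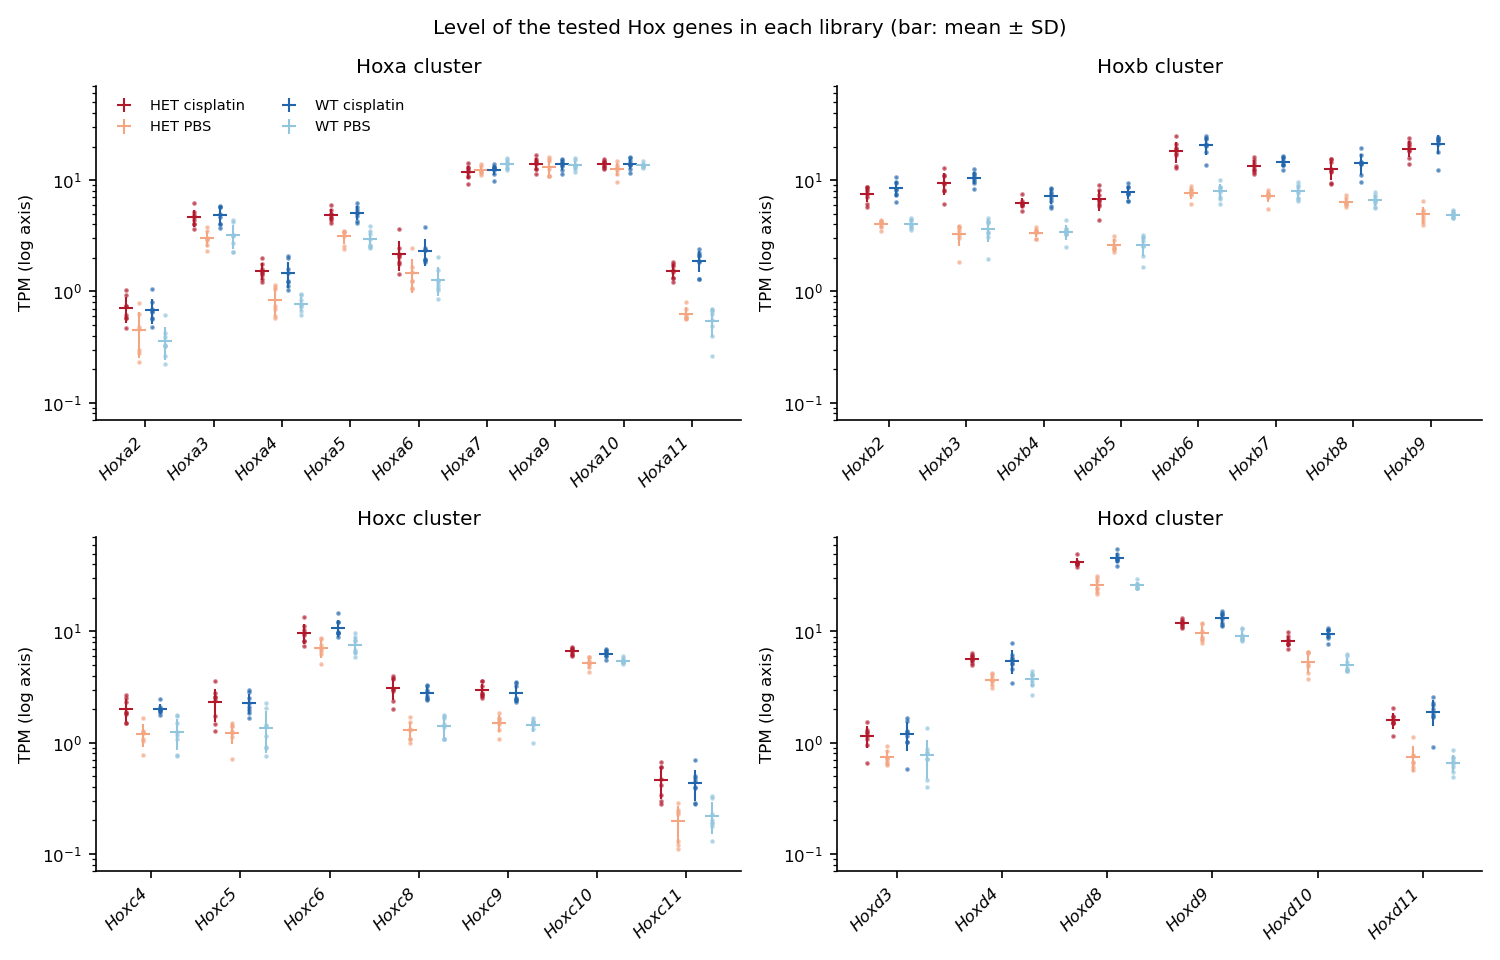
TPM of 30 of the 31 tested Hox genes on a log axis, by cluster, with 1 dot per library and a bar for the mean ± SD of each group. The Hoxb, Hoxc and Hoxd genes all have a higher mean TPM in both cisplatin groups, and TPM carry the shift of library totals described below. Hoxa7, Hoxa9 and Hoxa10 lie near 12 to 14 TPM in all 4 groups and Hoxd8 is highest throughout.

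Cisplatin against PBS asks how the drug changed the Hox genes in each genotype. With TMM scaling, which sets most genes level between libraries, 16 of the 31 tested Hox genes rose and 3 fell in HET (51.6% and 9.68%), beside 31% and 28% of all 19268 tested genes. In WT 18 rose and 4 fell (58.1% and 12.9%), beside 33.6% and 29.6% of all tested genes. A call is an adjusted p under 0.05 in edgeR's quasi-likelihood test. The median log2 fold change of the tested Hox genes was 0.38 in HET and 0.45 in WT, beside 0.06 for all tested genes in both. Scaling by library totals moved the median of all genes to 0.46 in HET and 0.45 in WT, a shift of 0.40 and 0.39. Then 27 Hox genes were called higher and 0 lower in HET (62.2% and 12.5% of all genes). In WT 28 were called higher and 1 lower (61.4% and 14.9%). TPM carry this same shift, so the folds below are those of the TMM-scaled CPM unless another scale is named. CPM ranges of cisplatin and PBS kidneys did not overlap for 9 Hox genes in HET and 12 in WT (29% and 38.7%), beside 26% and 31.8% of all tested genes. In whole kidney, fewer cells of a type and less RNA per cell cannot be told apart.

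**Figure D2:**
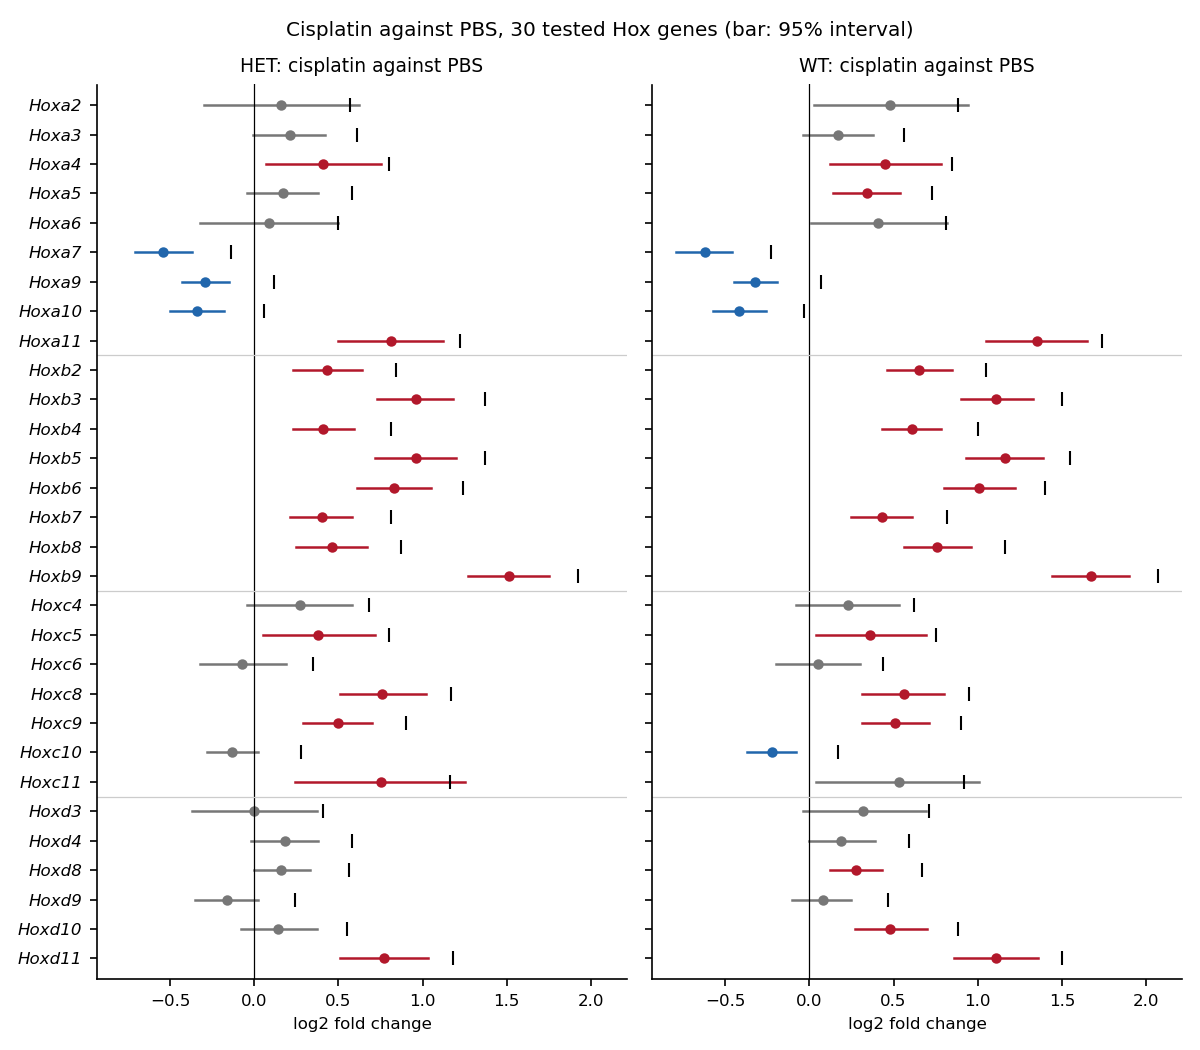
Log2 fold change of cisplatin against PBS with its 95% interval for 30 of the 31 tested Hox genes in HET (left) and WT (right), red for called higher, blue for called lower and grey for neither, with a black tick at the value under library totals. All 8 tested Hoxb genes are red in both panels, from 0.40 to 1.51 in HET and from 0.43 to 1.67 in WT, and Hoxa7, Hoxa9 and Hoxa10 are blue in both.

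All 8 tested genes of the Hoxb cluster rose under cisplatin in both genotypes, under TMM, RLE and library-total scaling alike. Beside them 31% of all tested genes rose in HET and 33.6% in WT with TMM scaling, and 62.2% and 61.4% by library totals. Hoxb9, a thoracic patterning gene, changed most among these 8, with 42 to 64.4 CPM (median 52.9) in HET cisplatin kidneys, against 14.3 to 23.2 CPM (median 19.4) in HET PBS kidneys. In WT it had 33.8 to 65.5 CPM (median 62.3) in WT cisplatin kidneys, against 16.4 to 20.2 CPM (median 17.5) in WT PBS kidneys. Every cisplatin library stood above every PBS library. The log2 fold change was 1.51 ± 0.12 in HET and 1.67 ± 0.11 in WT (SE, adjusted p = 2.11e-12 and 6.99e-14). WT cisplatin 6 was the lowest of its group at 33.8 CPM, apart from the other 7 at 53.3 to 65.5 CPM. Without HET cisplatin 6 and WT cisplatin 6 the log2 fold change of Hoxb9 was 1.55 in HET and 1.75 in WT. Among animals numbered in the 600s alone it was 1.65 and 1.59. All HET cisplatin animals were numbered in the 600s, while each other group also held animals of other numbers. The number range is thus partly tied to treatment.

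Hoxb5, which acts in the neural crest of the gut, had 12.2 to 22.1 CPM (median 16.4) in HET cisplatin kidneys, against 7.32 to 10.2 CPM (median 8.32) in HET PBS kidneys. It had 16.1 to 23.9 CPM (median 19.4) in WT cisplatin kidneys, against 5.43 to 10.5 CPM (median 9.07) in WT PBS kidneys. The ranges did not overlap in either genotype. The log2 fold change was 0.96 ± 0.12 in HET and 1.16 ± 0.11 in WT (SE, adjusted p = 3.13e-08 and 2.31e-10). Hoxb3, a hindbrain patterning gene, had 15.1 to 26.7 CPM (median 20.5) in HET cisplatin kidneys, against 7.29 to 13.1 CPM (median 10.9) in HET PBS kidneys. In WT the values were 20 to 27.4 CPM (median 23) in WT cisplatin kidneys, against 8.04 to 12.5 CPM (median 10.7) in WT PBS kidneys. The groups were again apart, with a log2 fold change of 0.96 ± 0.11 in HET and 1.11 ± 0.11 in WT (SE, adjusted p = 7.54e-09 and 1.15e-10). Of the Hoxb3 exon bases, 52.9% also lie under the antisense gene Hoxb3os. Hoxb6, active in lateral mesoderm and limb bud of the mouse embryo, had 23.7 to 40.2 CPM (median 31.8) in HET cisplatin kidneys, against 14.7 to 19.3 CPM (median 18.2) in HET PBS kidneys. Its WT values were 24.8 to 43.1 CPM (median 37) in WT cisplatin kidneys, against 15.5 to 21.9 CPM (median 17.9) in WT PBS kidneys. No cisplatin library reached down to a PBS library, and the log2 fold change was 0.83 ± 0.11 in HET and 1.01 ± 0.1 in WT (SE, adjusted p = 8.81e-08 and 6.73e-10).

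Smaller rises were seen for the other 4 Hoxb genes. Hoxb4, known for expanding blood stem cells when supplied to them, had 14.9 to 20.3 CPM (median 17.8) in HET cisplatin kidneys, against 11.8 to 14.7 CPM (median 13) in HET PBS kidneys. Among WT mice it had 16.3 to 23.8 CPM (median 19.9) in WT cisplatin kidneys, against 9.73 to 15.7 CPM (median 13.1) in WT PBS kidneys. The groups did not overlap, and the log2 fold change was 0.41 ± 0.088 in HET and 0.61 ± 0.085 in WT (SE, adjusted p = 0.000197 and 2.51e-07). Hoxb8, which holds myeloid progenitors in an immature state when overexpressed, had 21.5 to 33.7 CPM (median 30.3) in HET cisplatin kidneys, against 19.2 to 22.7 CPM (median 21.6) in HET PBS kidneys. WT values were 22.9 to 43.6 CPM (median 32.5) in WT cisplatin kidneys, against 17.7 to 22.6 CPM (median 19.1) in WT PBS kidneys. The ranges overlapped in HET and were apart in WT, with a log2 fold change of 0.46 ± 0.1 in HET and 0.76 ± 0.098 in WT (SE, adjusted p = 0.000259 and 6.24e-08).

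Hoxb2, another hindbrain gene, had 10.1 to 16.7 CPM (median 12.9) in HET cisplatin kidneys, against 9.36 to 10.4 CPM (median 10.1) in HET PBS kidneys. For WT it was 11.2 to 19.1 CPM (median 15.5) in WT cisplatin kidneys, against 8.44 to 11.8 CPM (median 9.72) in WT PBS kidneys. These ranges overlapped in both genotypes, and the log2 fold change was 0.43 ± 0.1 in HET and 0.65 ± 0.097 in WT (SE, adjusted p = 0.000433 and 6.61e-07). Hoxb7, whose regulatory sequence is widely used to drive transgenes in the ureteric bud and collecting duct, had 14.3 to 20.2 CPM (median 16.7) in HET cisplatin kidneys, against 9.33 to 15.4 CPM (median 12.7) in HET PBS kidneys. WT mice had 15.2 to 20.5 CPM (median 18.6) in WT cisplatin kidneys, against 11 to 15.7 CPM (median 13.6) in WT PBS kidneys. The ranges overlapped here too, and Hoxb7 had the smallest fold of the cluster at a log2 fold change of 0.40 ± 0.092 in HET and 0.43 ± 0.089 in WT (SE, adjusted p = 0.000447 and 0.0001). Along the cluster from Hoxb2 to Hoxb9 the folds did not follow gene order: Hoxb4 stood below both its neighbours, Hoxb3 and Hoxb5, and Hoxb7 and Hoxb8 stood below Hoxb6 and Hoxb9.

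**Figure D3:**
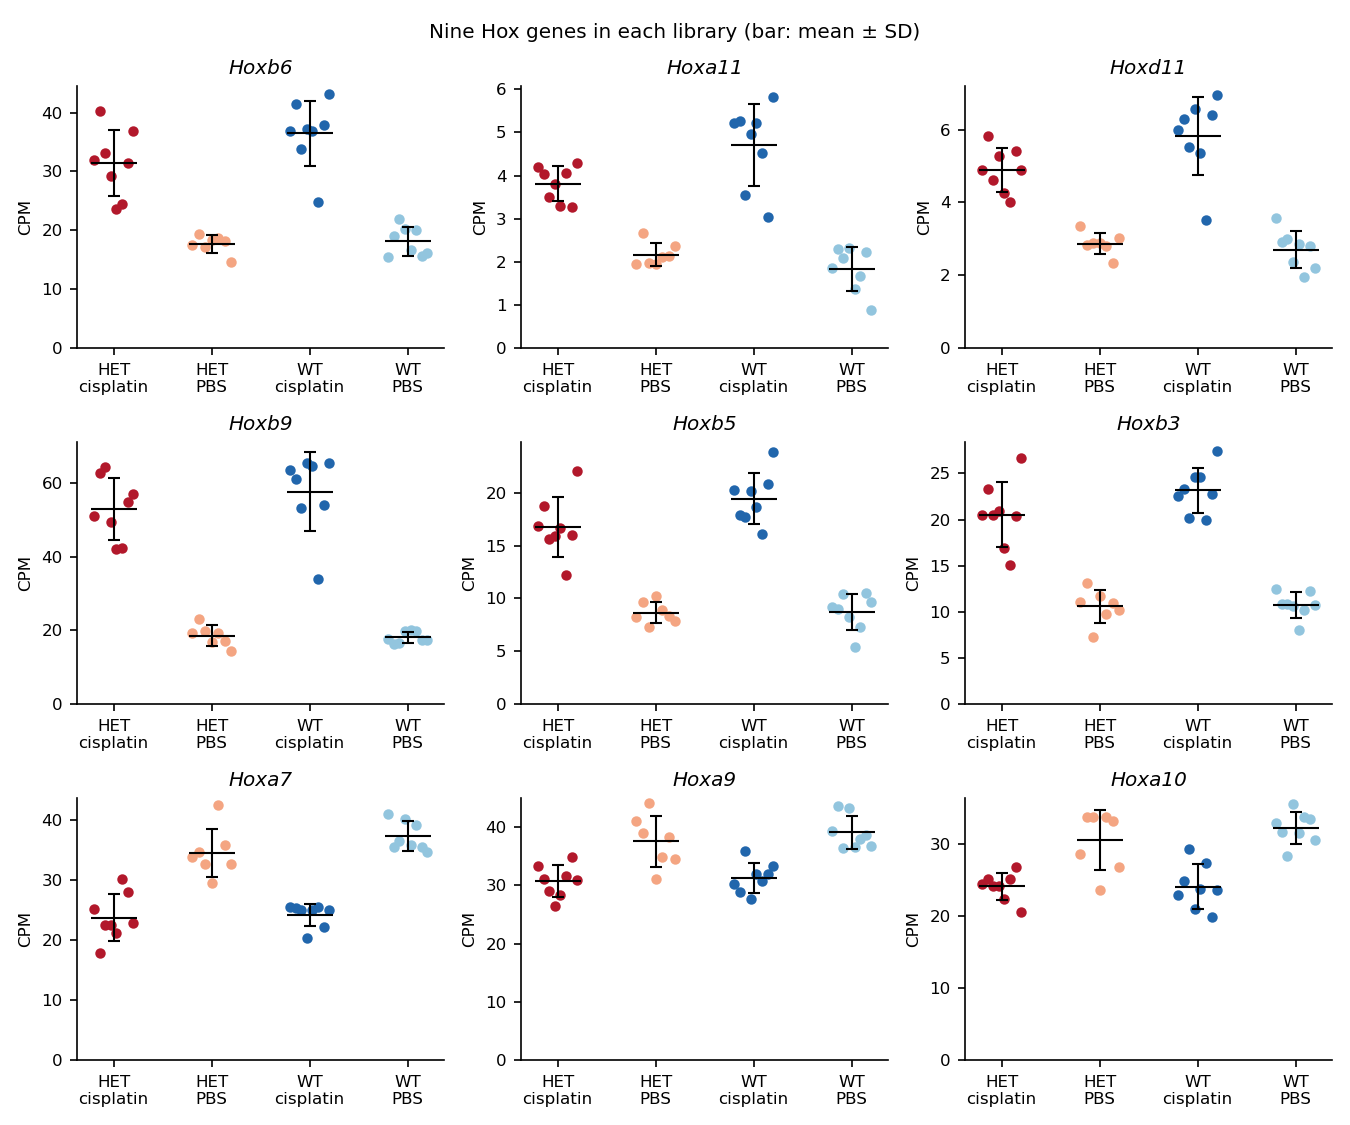
CPM of 9 Hox genes in each library, with the mean ± SD of each group, in the order HET cisplatin, HET PBS, WT cisplatin and WT PBS. Hoxb6, Hoxb9, Hoxb5 and Hoxb3 in cisplatin kidneys stand clear of PBS kidneys in both genotypes, Hoxa7, Hoxa9 and Hoxa10 are lower with cisplatin, and Hoxb9 and Hoxd11 each have 1 low library among the WT cisplatin kidneys.

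In the Hoxa cluster 3 of 10 tested genes were called higher and 3 lower in HET, and 4 higher and 3 lower in WT. These counts are near the 31% and 28% of all tested genes in HET and the 33.6% and 29.6% in WT. By library totals 7 were called higher and 0 lower in HET, and 7 higher and 1 lower in WT. Over all genes 62.2% were then higher and 12.5% lower in HET, and 61.4% and 14.9% in WT. Hoxa11, a Hox11 paralog needed for kidney and forearm, had 3.27 to 4.29 CPM (median 3.92) in HET cisplatin kidneys, against 1.94 to 2.67 CPM (median 2.12) in HET PBS kidneys. WT mice had 3.05 to 5.83 CPM (median 5.09) in WT cisplatin kidneys, against 0.888 to 2.33 CPM (median 1.97) in WT PBS kidneys. Neither pair of ranges overlapped, and the log2 fold change was 0.81 ± 0.15 in HET and 1.35 ± 0.15 in WT (SE, adjusted p = 3.26e-05 and 2.53e-09). Of the Hoxa11 exon bases, 35% also lie under its antisense gene Hoxa11os, which rose as well, and no source used here states the strand setting, so part of either value may belong to the other.

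Further along the cluster, 3 neighbouring genes had lower CPM under cisplatin. Hoxa7, a trunk patterning gene, had 17.8 to 30.2 CPM (median 22.7) in HET cisplatin kidneys, against 29.5 to 42.4 CPM (median 33.8) in HET PBS kidneys. WT libraries had 20.4 to 25.4 CPM (median 25) in WT cisplatin kidneys, against 34.6 to 41 CPM (median 36.2) in WT PBS kidneys. The groups were apart in WT and overlapped in HET, and the log2 fold change was -0.54 ± 0.082 in HET and -0.62 ± 0.08 in WT (SE, adjusted p = 1.22e-06 and 4.58e-08). By library totals it was -0.14 in HET and -0.23 in WT, called lower in WT alone. Hoxa9, known for its part in blood stem cells and leukaemia, had 26.5 to 34.9 CPM (median 30.9) in HET cisplatin kidneys, against 31.1 to 44.1 CPM (median 38.3) in HET PBS kidneys. The WT values were 27.6 to 35.9 CPM (median 31.3) in WT cisplatin kidneys, against 36.4 to 43.6 CPM (median 38.3) in WT PBS kidneys. Its log2 fold change was -0.29 ± 0.067 in HET and -0.32 ± 0.065 in WT (SE, adjusted p = 0.000426 and 8.48e-05). It changed sign by library totals, to 0.12 in HET and 0.07 in WT, and was then not called. Hoxa10, which acts in uterus and limb and is one of the Hox10 paralogs, had 20.6 to 26.8 CPM (median 24.3) in HET cisplatin kidneys, against 23.6 to 33.8 CPM (median 33.2) in HET PBS kidneys. WT kidneys had 19.9 to 29.3 CPM (median 23.7) in WT cisplatin kidneys, against 28.3 to 35.6 CPM (median 32.3) in WT PBS kidneys. The ranges overlapped in both genotypes, and the log2 fold change of -0.34 ± 0.079 in HET and -0.42 ± 0.076 in WT (SE, adjusted p = 0.000432 and 1.75e-05) also depended on scaling. By library totals it was 0.06 in HET and -0.03 in WT and not called.

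Among the remaining Hoxa genes, Hoxa4, a neck and trunk gene, had 1.92 to 3.65 CPM (median 2.39) in HET cisplatin kidneys, against 1.28 to 2.48 CPM (median 1.8) in HET PBS kidneys. Its WT libraries showed 1.79 to 3.36 CPM (median 2.19) in WT cisplatin kidneys, against 1.37 to 2.27 CPM (median 1.7) in WT PBS kidneys. The ranges overlapped, and the log2 fold change was 0.41 ± 0.17 in HET and 0.45 ± 0.16 in WT (SE, adjusted p = 0.0366 and 0.0165). The Hoxa4 call was lost in HET without any 1 of HET cisplatin 6 and 7 and HET PBS 3, 4, 5 and 6 (adjusted p up to 0.0951) and in WT without WT cisplatin 2 (0.0516). Hoxa5, which is needed for lung development, had 7.97 to 11.6 CPM (median 9.88) in HET cisplatin kidneys, against 6.77 to 10.4 CPM (median 9.02) in HET PBS kidneys. It had 8.66 to 12.3 CPM (median 10.2) in WT cisplatin kidneys, against 6.95 to 9.63 CPM (median 7.63) in WT PBS kidneys. The groups overlapped, and its log2 fold change of 0.17 ± 0.1 in HET and 0.34 ± 0.098 in WT (SE, adjusted p = 0.151 and 0.00324) was called in WT alone.

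Hoxa2, Hoxa3 and Hoxa6 did not pass the test in either genotype with TMM scaling. By library totals all 3 were called higher in both, at 0.57 in HET and 0.88 in WT for Hoxa2, 0.61 in HET and 0.56 in WT for Hoxa3 and 0.50 in HET and 0.81 in WT for Hoxa6. Hoxa2, the selector gene of the second pharyngeal arch, had 0.961 to 1.87 CPM (median 1.22) in HET cisplatin kidneys, against 0.59 to 1.95 CPM (median 1.27) in HET PBS kidneys. WT values were 0.943 to 1.83 CPM (median 1.24) in WT cisplatin kidneys, against 0.533 to 1.54 CPM (median 0.819) in WT PBS kidneys. They overlapped, with a log2 fold change of 0.16 ± 0.23 in HET and 0.48 ± 0.22 in WT (SE, adjusted p = 0.55 and 0.0576). The WT value passed without any 1 of WT cisplatin 1 and 4, WT PBS 1 and HET PBS 1 and 7 (adjusted p down to 0.0141). Hoxa3, needed for thymus and parathyroid, had 9.36 to 13.3 CPM (median 10.5) in HET cisplatin kidneys, against 8.49 to 10.9 CPM (median 9.55) in HET PBS kidneys. WT kidneys showed 9.56 to 13.5 CPM (median 11) in WT cisplatin kidneys, against 7.44 to 12.8 CPM (median 10) in WT PBS kidneys. It overlapped too, with a log2 fold change of 0.21 ± 0.11 in HET and 0.17 ± 0.1 in WT (SE, adjusted p = 0.0914 and 0.144). It passed in WT without WT PBS 2 (0.0489). Hoxa6 had 1.08 to 2.54 CPM (median 1.61) in HET cisplatin kidneys, against 1.1 to 2.81 CPM (median 1.32) in HET PBS kidneys. Its WT libraries had 1.43 to 2.8 CPM (median 1.69) in WT cisplatin kidneys, against 0.866 to 2.26 CPM (median 1.23) in WT PBS kidneys. Here the log2 fold change was 0.09 ± 0.2 in HET and 0.41 ± 0.2 in WT (SE, adjusted p = 0.725 and 0.0679). The WT value passed without WT PBS 7 or HET PBS 6 (down to 0.0123).

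In the Hoxc cluster 4 of 7 tested genes rose in HET, and 3 rose and 1 fell in WT, where 31% and 33.6% of all tested genes rose. RLE scaling called 3 higher in HET and 2 higher and 1 lower in WT, and library totals called all 7 higher in both, where 62.2% and 61.4% of all genes were higher. Hoxc8, a trunk gene that specifies motor neurons of the forelimb, had 4.71 to 8.02 CPM (median 6.83) in HET cisplatin kidneys, against 2.95 to 5 CPM (median 3.92) in HET PBS kidneys. The WT ranges were 5.35 to 7.01 CPM (median 6.05) in WT cisplatin kidneys, against 3.24 to 5.26 CPM (median 4.34) in WT PBS kidneys. The ranges overlapped in HET and were apart in WT, and the log2 fold change was 0.76 ± 0.13 in HET and 0.56 ± 0.12 in WT (SE, adjusted p = 4.47e-06 and 0.000168). Hoxc9, which specifies thoracic motor neurons, had 6.42 to 8.77 CPM (median 7.51) in HET cisplatin kidneys, against 4.17 to 6.15 CPM (median 5.38) in HET PBS kidneys. WT kidneys had 5.97 to 8.4 CPM (median 6.59) in WT cisplatin kidneys, against 3.59 to 5.58 CPM (median 5.05) in WT PBS kidneys. They were apart in both genotypes, with a log2 fold change of 0.50 ± 0.1 in HET and 0.51 ± 0.097 in WT (SE, adjusted p = 8.53e-05 and 3.23e-05). Hoxc5 had 3.94 to 8.23 CPM (median 5.98) in HET cisplatin kidneys, against 3.04 to 5.7 CPM (median 4.75) in HET PBS kidneys. For WT the values were 4.75 to 7.34 CPM (median 6.41) in WT cisplatin kidneys, against 3.23 to 6.74 CPM (median 4.38) in WT PBS kidneys. They overlapped, and the log2 fold change was 0.38 ± 0.17 in HET and 0.36 ± 0.16 in WT (SE, adjusted p = 0.0469 and 0.0475). The call was lost without any 1 of 16 of the 31 libraries in HET (adjusted p up to 0.12) and any 1 of 18 in WT (up to 0.107).

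Hoxc10, a Hox10 paralog, had 12.3 to 16.3 CPM (median 13.3) in HET cisplatin kidneys, against 11.9 to 16.9 CPM (median 14.8) in HET PBS kidneys. Its WT ranges were 11.4 to 15.5 CPM (median 13) in WT cisplatin kidneys, against 13.5 to 16.9 CPM (median 15) in WT PBS kidneys. The ranges overlapped, and the log2 fold change of -0.13 ± 0.073 in HET and -0.22 ± 0.071 in WT (SE, adjusted p = 0.138 and 0.0068) was called lower in WT alone. By library totals it was 0.28 in HET and 0.17 in WT and called higher in both, so its direction depended on the scaling. The HET value passed without HET cisplatin 6 or HET PBS 7 (adjusted p down to 0.0362). Hoxc11, a Hox11 paralog, had 0.605 to 1.38 CPM (median 1.03) in HET cisplatin kidneys, against 0.347 to 0.935 CPM (median 0.694) in HET PBS kidneys. WT kidneys had 0.614 to 1.51 CPM (median 0.926) in WT cisplatin kidneys, against 0.376 to 0.987 CPM (median 0.608) in WT PBS kidneys. At 119 to 267 counts per group its log2 fold change was 0.75 ± 0.25 in HET and 0.53 ± 0.24 in WT (SE, adjusted p = 0.0107 and 0.0542). The WT value passed without any 1 of WT cisplatin 2 and 5, WT PBS 1 and 5, HET cisplatin 5 and HET PBS 6 (down to 0.0255). Hoxc4 had 3.46 to 5.52 CPM (median 4.11) in HET cisplatin kidneys, against 2.54 to 4.87 CPM (median 3.58) in HET PBS kidneys. Its WT values were 4.17 to 5.05 CPM (median 4.23) in WT cisplatin kidneys, against 2.17 to 5.16 CPM (median 3.64) in WT PBS kidneys. That gave overlapping groups and a log2 fold change of 0.27 ± 0.15 in HET and 0.23 ± 0.15 in WT (SE, adjusted p = 0.132 and 0.185). Hoxc6 had 8.03 to 15.2 CPM (median 11.9) in HET cisplatin kidneys, against 8.4 to 14.1 CPM (median 12.1) in HET PBS kidneys. WT mice showed 9.65 to 16.2 CPM (median 12.3) in WT cisplatin kidneys, against 9.2 to 14.9 CPM (median 12.3) in WT PBS kidneys. The ranges overlapped nearly in full, at a log2 fold change of -0.07 ± 0.13 in HET and 0.05 ± 0.12 in WT (SE, adjusted p = 0.679 and 0.758). By library totals the value was 0.35 in HET and 0.44 in WT and called higher in both.

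In the Hoxd cluster 1 of 6 tested genes rose in HET and 3 in WT, beside the same 31% and 33.6% of all genes, and none was called lower by edgeR in either. By library totals 5 were called higher in HET and all 6 in WT, where 62.2% and 61.4% of all genes were higher. Hoxd11, which acts with Hoxa11 and Hoxc11 in kidney formation, had 4 to 5.82 CPM (median 4.88) in HET cisplatin kidneys, against 2.34 to 3.34 CPM (median 2.88) in HET PBS kidneys. In WT it had 3.51 to 6.95 CPM (median 6.14) in WT cisplatin kidneys, against 1.96 to 3.58 CPM (median 2.82) in WT PBS kidneys. The groups were apart in HET and overlapped in WT through WT cisplatin 6 at 3.51 CPM, and the log2 fold change was 0.77 ± 0.13 in HET and 1.11 ± 0.12 in WT (SE, adjusted p = 4.04e-06 and 2.41e-09). Without HET cisplatin 6 and WT cisplatin 6 it was 0.81 in HET and 1.19 in WT. Hoxd10, a Hox10 paralog that patterns lumbar motor neurons, had 13 to 17.9 CPM (median 15.8) in HET cisplatin kidneys, against 9.51 to 17.1 CPM (median 14.6) in HET PBS kidneys. The WT values were 14.7 to 19.9 CPM (median 19.3) in WT cisplatin kidneys, against 11.6 to 16.7 CPM (median 12) in WT PBS kidneys. The groups overlapped, and the log2 fold change of 0.14 ± 0.11 in HET and 0.48 ± 0.11 in WT (SE, adjusted p = 0.265 and 0.000188) was called in WT alone.

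Hoxd8, the most abundant member, had 86 to 123 CPM (median 95.5) in HET cisplatin kidneys, against 70.5 to 102 CPM (median 89.1) in HET PBS kidneys. WT libraries had 90.3 to 116 CPM (median 104) in WT cisplatin kidneys, against 76.8 to 98.9 CPM (median 81.6) in WT PBS kidneys. These ranges overlapped, and the log2 fold change of 0.16 ± 0.08 in HET and 0.28 ± 0.077 in WT (SE, adjusted p = 0.0812 and 0.00256) was called in WT alone. The HET value passed without HET PBS 1 or 3 (adjusted p down to 0.034). Hoxd9 had 24.3 to 32.5 CPM (median 26.8) in HET cisplatin kidneys, against 26.8 to 36.9 CPM (median 29.4) in HET PBS kidneys. Its WT values were 25.5 to 35.3 CPM (median 30.4) in WT cisplatin kidneys, against 24 to 35.5 CPM (median 28.2) in WT PBS kidneys. The groups overlapped at a log2 fold change of -0.16 ± 0.089 in HET and 0.08 ± 0.086 in WT (SE, adjusted p = 0.115 and 0.461). On library totals the value was 0.24 in HET and 0.47 in WT and called higher in both. Hoxd3 had 2.15 to 3.96 CPM (median 3.43) in HET cisplatin kidneys, against 2.77 to 3.75 CPM (median 3.04) in HET PBS kidneys. WT kidneys had 1.66 to 4.66 CPM (median 3.33) in WT cisplatin kidneys, against 1.72 to 3.81 CPM (median 2.79) in WT PBS kidneys. No shift was called, at a log2 fold change of 0.00 ± 0.18 in HET and 0.32 ± 0.18 in WT (SE, adjusted p = 0.997 and 0.112). The WT value passed without WT cisplatin 7 or WT PBS 3 (down to 0.0244). Hoxd4 had 11.2 to 13.7 CPM (median 11.8) in HET cisplatin kidneys, against 8.87 to 12.1 CPM (median 10.7) in HET PBS kidneys. Its WT libraries showed 8.49 to 15.9 CPM (median 11.5) in WT cisplatin kidneys, against 8.03 to 11.6 CPM (median 10.9) in WT PBS kidneys. It overlapped between groups with a log2 fold change of 0.18 ± 0.099 in HET and 0.19 ± 0.096 in WT (SE, adjusted p = 0.119 and 0.0771). That in WT passed without WT cisplatin 4 (0.0176). Hoxd3 and Hoxd4 share 62.3% and 52.3% of their exon bases with each other or with Gm28230 on the same strand, and their counts are therefore uncertain.

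Paralogs were also compared within a library, where scaling cancels. For each of 32 pairs of tested paralogs the log2 ratio of the counts (each plus 0.5) was compared between cisplatin and PBS libraries by a two-sided exact permutation test, and the 64 p-values over both genotypes were adjusted together. This comparison was added after the values were seen. It uses the same counts as the folds above, and pairs share genes, so the pairs are not independent results. The ratio differed for 17 pairs in HET and 20 in WT, 16 of them in both. Pairs of other genes were not compared, so no share over all genes stands beside these counts. Of all tested genes, 31% were called higher and 28% lower in HET, and 33.6% and 29.6% in WT. The mean log2 ratio of Hoxa9 to Hoxb9 was -0.78 ± 0.25 in HET cisplatin, against 1.02 ± 0.19 in HET PBS, and -0.86 ± 0.36 in WT cisplatin, against 1.11 ± 0.16 in WT PBS (SD). No library of a cisplatin group reached the range of its PBS group, and the difference was -1.80 in HET and -1.96 in WT (adjusted exact p = 0.00071 in each, from 0.000155, the smallest p these permutations can give).

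Hoxb9 also gained on its other paralogs: its log2 ratio to Hoxd9 was higher by 1.67 in HET and 1.56 in WT, and that to Hoxc9 by 1.01 and 1.14. The ratio of Hoxa7 to Hoxb7 differed by -0.95 in HET and -1.06 in WT, that of Hoxa3 to Hoxb3 by -0.76 and -0.93. That of Hoxa5 to Hoxb5 differed by -0.77 and -0.83 and that of Hoxa6 to Hoxb6 by -0.69 and -0.57 (adjusted exact p from 0.00071 to 0.0214). Hoxa4 to Hoxb4 (0.01 and -0.18) and Hoxa2 to Hoxb2 (-0.17 and -0.15) did not pass the test. Among the Hox10 paralogs the ratio of Hoxa10 to Hoxd10 differed by -0.50 in HET and -0.92 in WT, and that of Hoxc10 to Hoxd10 by -0.29 and -0.72 (adjusted exact p from 0.00071 to 0.0174). Among the Hox11 paralogs the ratio of Hoxa11 to Hoxc11 differed by 0.85 in WT and that of Hoxc11 to Hoxd11 by -0.58 (adjusted exact p = 0.0144 and 0.0386), while in HET the differences of 0.04 and 0.00 did not pass. The Hoxa11 to Hoxd11 ratio did not pass in either genotype, with differences of 0.04 in HET and 0.28 in WT.

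**Figure D4:**
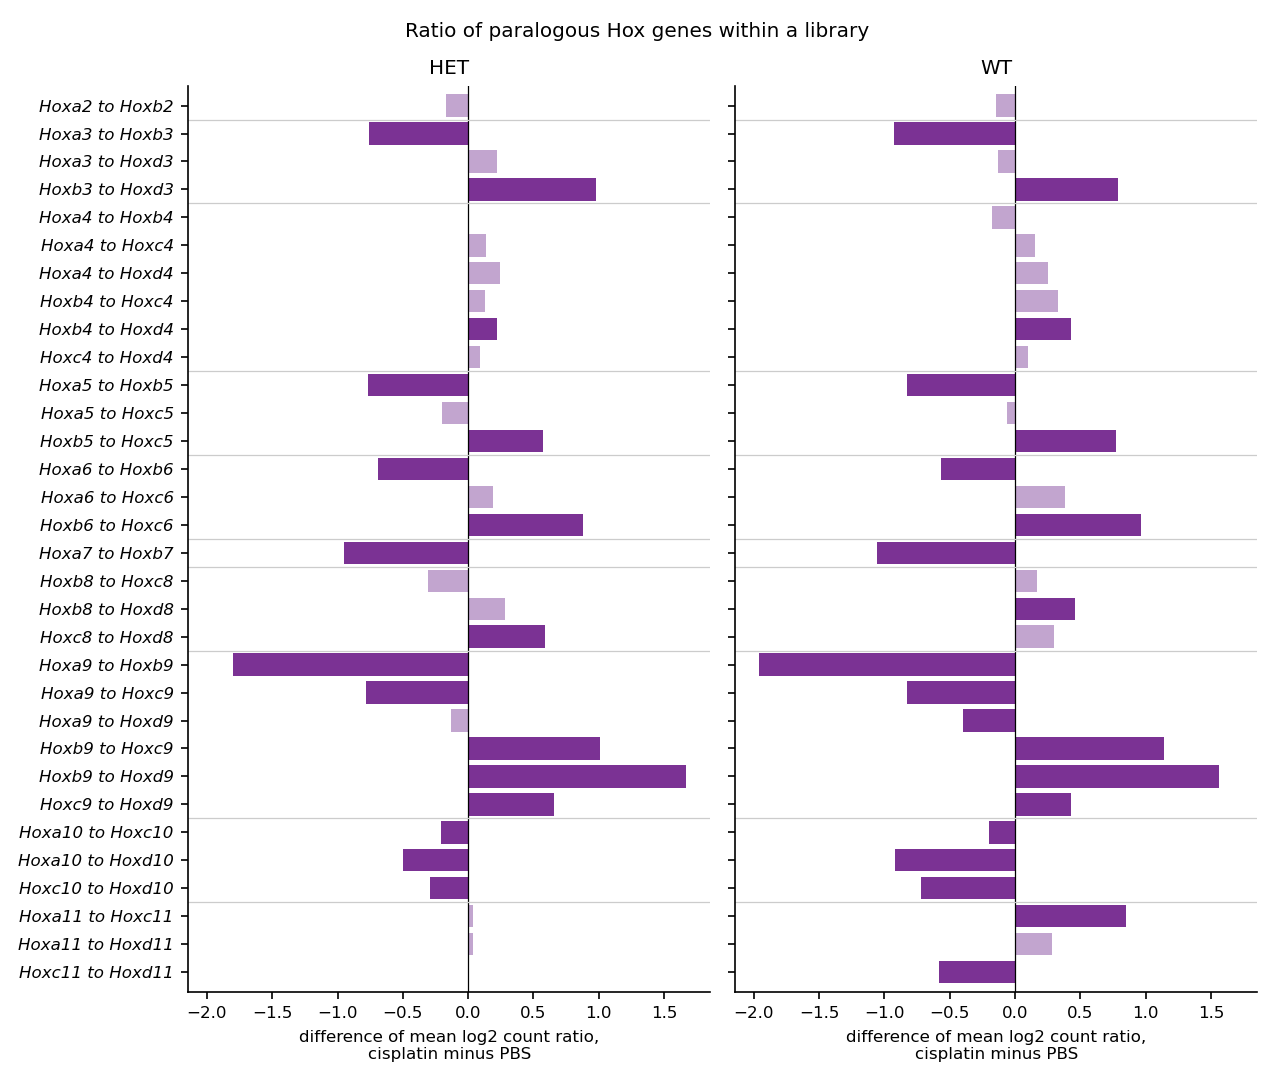
Difference between cisplatin and PBS libraries in the mean log2 count ratio of each pair of paralogous Hox genes, in HET (left) and WT (right), dark where the adjusted exact p was under 0.05. The longest bars belong to Hoxa9 to Hoxb9, at -1.80 and -1.96, and pairs with a Hoxb member point towards Hoxb wherever they are dark.

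The 8 members that did not pass the filter were Hoxa13, Hoxb1, Hoxb13, Hoxc12, Hoxc13, Hoxd1, Hoxd12 and Hoxd13, which include every member of paralog groups 12 and 13. Hoxc13, which is needed for hair and nails, had 37 counts in all HET cisplatin libraries together, against 0 in HET PBS, and 61 in WT cisplatin, against 0 in WT PBS. Set against a floor of 3 counts over the PBS group, that is at least 9.36-fold higher in HET and at least 19.4-fold higher in WT, and without the filter the adjusted p was 0.00048 and 2.84e-05. Hoxa13, which acts in the distal limb and the urogenital tract, had 27 counts in HET cisplatin, against 1 in HET PBS (ratio 20.5, counting interval 3.38 to 839), and 18 in WT cisplatin, against 0 in WT PBS (at least 5.73-fold higher; adjusted p without the filter 0.00411 in HET and 0.000875 in WT). The Hoxa13 counts in HET cisplatin came from 7 of 8 libraries, with a median of 2 and 10 in the highest library. Those in WT cisplatin came from 6 of 8, with a median of 1.5 and 6 in the highest. Hoxd13 had 3 counts in HET cisplatin, against 0 in HET PBS, and 11 in WT cisplatin, against 0 in WT PBS, at least 3.5-fold higher in WT cisplatin (adjusted p without the filter 0.147 in HET and 0.00583 in WT). Hoxd1 had 14 and 4 counts in HET cisplatin and HET PBS, and 8 and 7 in WT cisplatin and WT PBS. Hoxb1 had 1 to 3 counts per group, Hoxc12 and Hoxd12 had 1 count each in all libraries together and Hoxb13 was at 0. These counts are so few that intervals and floors cover counting error only.

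Inside the cluster bounds the table holds 46 further genes, of which 13 were tested and 15 had 0 counts in every library. Among the 13, 7 rose and 1 fell in HET and 6 rose and 1 fell in WT. Over all tested genes 31% rose and 28% fell in HET, and 33.6% and 29.6% in WT. Gm53, annotated as a lincRNA between Hoxb13 and Hoxb9, had 41.7 to 57.5 CPM (median 48.1) in HET cisplatin kidneys, against 14.8 to 21.5 CPM (median 16.6) in HET PBS kidneys. WT kidneys showed 33.8 to 64 CPM (median 53.2) with cisplatin, against 11.8 to 22.4 CPM (median 16) with PBS. Its log2 fold change of 1.46 ± 0.12 in HET and 1.70 ± 0.12 in WT (SE, adjusted p = 9.72e-12 and 1.03e-13) stood beside the 1.51 and 1.67 of its neighbour Hoxb9. Gm53 was singled out after its values were seen. Hoxb5os, an antisense gene within the same cluster, had a lower CPM instead, with a log2 fold change of -0.74 ± 0.14 in HET and -0.63 ± 0.14 in WT (adjusted p = 5.26e-05 and 0.000233; by library totals -0.34 and -0.24, the WT value then not called).

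Of the 17 noncoding RNAs listed for the clusters 7 were tested, and 4 rose and 1 fell in each genotype. By library totals 5 were called higher in each, with 1 lower in HET and 0 in WT. Over all genes 62.2% were then higher and 12.5% lower in HET, and 61.4% and 14.9% in WT. Hotairm1, an antisense RNA of the Hoxa cluster, rose with a log2 fold change of 0.99 ± 0.17 in HET and 1.09 ± 0.16 in WT, Hoxd3os1 with 0.56 ± 0.12 and 0.64 ± 0.11 and Hoxa11os with 0.94 ± 0.17 and 0.65 ± 0.16 (SE, adjusted p from 9.26e-07 to 0.000566). Across the 31 tested Hox genes, 10 share exon bases with a gene on the opposite strand, 9 with one on the same strand and 15 with neither. Hoxb4, Hoxb6, Hoxb7, Hoxb8 and Hoxb9 are among those 15. After Hoxb3 and Hoxa11 the largest opposite-strand shares were 27.3% for Hoxb2, 25.4% for Hoxa3 and 20.4% for Hoxa7. With the strand setting not stated, the counts of these genes are uncertain too. Genes flanking the 4 clusters moved both ways: of 19 tested, 6 rose and 9 fell in HET and 6 rose and 8 fell in WT. With the same TMM scaling 31% of all tested genes rose and 28% fell in HET, and 33.6% and 29.6% in WT. Hibadh, Atp5g3 and Copz2, which lie outside the clusters, had log2 fold changes of -1.67, -0.95 and -0.52 in HET and -1.79, -1.01 and -0.72 in WT.

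Hox proteins bind DNA together with TALE homeodomain cofactors of the Pbx, Meis and Pknox families. Of 9 such genes, 5 rose and 1 fell in HET and 5 rose and 2 fell in WT. Over all tested genes 31% rose and 28% fell in HET, and 33.6% and 29.6% in WT. In TMM-scaled CPM the summed level of the 9 did not rise. It was 213 to 266 CPM in HET cisplatin, against 210 to 289 CPM in HET PBS. In WT it was 223 to 235 CPM with cisplatin, below the 243 to 294 CPM with PBS. The sum was not formed by library totals. On that scale 8 of the 9 genes were called higher in HET and 7 in WT, beside 62.2% and 61.4% of all genes. Pbx4 averaged 2.49 ± 0.236 CPM in HET cisplatin, against 0.292 ± 0.114 CPM in HET PBS, and 2.2 ± 0.533 CPM in WT cisplatin, against 0.367 ± 0.172 CPM in WT PBS (SD), a log2 fold change of 3.08 ± 0.23 and 2.56 ± 0.22 (SE). Meis3 and Pknox2 rose by 1.92 and 1.55 in HET and by 1.81 and 1.11 in WT on the log2 scale.

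Other lists that bear on Hox control were mixed, and their counts stand beside 31% higher and 28% lower over all tested genes in HET and 33.6% and 29.6% in WT. Their median log2 fold changes were 0.38 in HET and 0.20 in WT for retinoic acid signalling, 0.08 and 0.15 for Polycomb, -0.08 and 0.06 for Trithorax and 0.28 and 0.24 for the Hox11 partners, beside 0.06 over all tested genes in both. Of 15 tested genes of retinoic acid signalling, which switches on Hox genes in the embryo, 8 rose and 4 fell in HET and 7 rose and 4 fell in WT. Aldh1a1 and Aldh1a2, which make retinoic acid, rose by 4.25 ± 0.2 and 2.65 ± 0.24 in HET and by 4.73 ± 0.19 and 2.58 ± 0.23 in WT on the log2 scale (SE). Rxra, a receptor partner, fell by 0.66 and 0.64. Of 22 genes of the Polycomb complexes, which keep Hox genes silent, 8 rose and 6 fell in HET and 11 rose and 7 fell in WT. Among them stood Eed at 0.67 and 0.69, Phc2 at 0.46 and 0.49 and Rbbp4 at -0.36 and -0.43 (0.04 and -0.04 by library totals, not called). Of 8 genes of the Trithorax group and the H3K27 demethylases, 2 rose and 2 fell in HET and 2 rose and 3 fell in WT. They included Men1 at -0.64 and -0.65, Kmt2a at 0.30 and 0.27 and Dpy30 at -0.22 and -0.34 (0.19, called higher, and 0.05 by library totals). None of the 6 Cdx and ParaHox genes passed the low-count filter. Of 11 tested genes that work with Hox11 in the forming kidney, 5 rose and 3 fell in HET and 6 rose and 3 fell in WT. These included Pax8 at 0.83 and 1.05, Wt1 at 0.76 and 0.92 and Gfra1 at -1.55 and -1.68. By library totals the genes called higher and lower were, in HET and then WT, 9 and 3 and 9 and 3 for retinoic acid signalling, 14 and 1 and 14 and 0 for Polycomb, 7 and 1 and 6 and 1 for Trithorax, 7 and 2 and 7 and 3 for the Hox11 partners, 8 and 0 and 7 and 1 for the TALE cofactors and 13 and 2 and 12 and 3 for the flanking genes. Over all genes they were 62.2% and 12.5% in HET and 61.4% and 14.9% in WT.

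Markers of several kidney cell types moved with cisplatin beside these Hox values. Their counts stand beside 31% higher and 28% lower over all tested genes in HET and 33.6% and 29.6% in WT. All 10 proximal tubule markers fell in both genotypes, and their summed level was 1130 to 6290 CPM in HET cisplatin, against 15700 to 18300 CPM in HET PBS, and 1200 to 6710 CPM in WT cisplatin, against 16200 to 18700 CPM in WT PBS. All 9 markers of injured tubule rose, from a lowest sum of 2890 CPM with cisplatin in HET and 5760 CPM in WT, against at most 910 and 915 CPM with PBS. Of 10 markers of principal cells of the collecting duct, 5 rose and 1 fell in HET and 7 rose and 0 fell in WT. Their summed level was 1270 to 1590 CPM in HET cisplatin, against 1180 to 1630 CPM in HET PBS. In WT it was 1320 to 1640 CPM with cisplatin, against 1030 to 1440 CPM with PBS. Of 9 stromal markers 7 rose in HET and 5 in WT, with sums of 267 to 885 CPM in HET cisplatin, against 281 to 425 CPM in HET PBS, and 425 to 709 CPM in WT cisplatin, against 256 to 396 CPM in WT PBS. By library totals all 10 proximal tubule markers were still called lower and all 9 injured tubule markers higher, while 9 principal cell markers were higher in HET and 10 in WT, and 9 stromal markers in HET and 8 in WT. Of all genes, 62.2% were then higher and 12.5% lower in HET, and 61.4% and 14.9% in WT. No marker of these 4 lists was at 0 in every library of any group. The part of these shifts in the Hox values was not tested.

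In the other lists the counts that rose and fell were, in HET, 4 and 1 of 5 for thin limb, 1 and 5 of 6 for thick ascending limb, 0 and 6 of 6 for distal convoluted tubule, 1 and 2 of 7 for intercalated cells and 2 and 2 of 6 for podocytes. The same lists in WT had 4 and 1, 1 and 5, 0 and 6, 2 and 2 and 1 and 3. Endothelial markers had 0 and 7 of 7 in each genotype. Smooth muscle had 1 and 1 of 6 in HET and 2 and 2 in WT, urothelium 4 and 0 of 6 in HET and 3 and 0 in WT, and macrophages 5 and 1 of 7 in HET and 6 and 1 in WT. Lymphocyte markers had 0 and 4 of 6 and erythroid markers 0 and 4 of 4 in each genotype. Adipocytes had 4 and 0 of 5 in HET and 2 and 0 in WT, adrenal cortex 1 and 0 of 1 in HET and 0 and 0 in WT, and skeletal muscle 1 and 0 of 2 in HET and 0 and 0 in WT. With TMM scaling, 31% of all tested genes rose and 28% fell in HET, and 33.6% and 29.6% in WT. Library totals changed several of the list counts. Of all genes, 62.2% were then higher and 12.5% lower in HET, and 61.4% and 14.9% in WT. Endothelial markers then had 2 higher in each genotype, with 2 lower in HET and 4 in WT, and thick ascending limb had 2 lower in HET and 3 in WT. Distal convoluted tubule had 5 lower in HET and 4 in WT, lymphocytes 1 and 4 and erythroid cells 3 and 4. Intercalated cells then had 4 higher in each genotype, with 1 lower in HET and 2 in WT, as had podocytes. Smooth muscle had 3 higher in HET and 4 in WT, with 1 lower in each. Urothelium had 4 higher in each, macrophages 6, adipocytes 4 in HET and 3 in WT, and skeletal muscle 1 in each. Thin limb and adrenal cortex kept their counts.

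HET against WT asks whether the Nbl1 genotype label changed the Hox genes under either treatment. By edgeR no Hox gene was called under cisplatin or PBS, beside 0.00519% and 0% of all 19268 genes tested (1 and 0 genes), and DESeq2 and limma voom called no Hox gene either. At an unadjusted p under 0.05, 5 of 31 Hox genes passed under cisplatin and 0 under PBS, beside 5.53% and 5.02% of all genes. The 5 were Hoxa11, Hoxb4, Hoxb6, Hoxd10 and Hoxd11, named after their values were seen, and all had lower values in HET cisplatin kidneys: log2 differences of -0.30 ± 0.14, -0.19 ± 0.084, -0.22 ± 0.1, -0.22 ± 0.1 and -0.25 ± 0.12 (SE, adjusted p = 0.886, 0.874, 0.886, 0.886 and 0.886). Hoxa11 had a median of 3.92 CPM in HET cisplatin kidneys, against 5.09 CPM in WT cisplatin kidneys, and their ranges of 3.27 to 4.29 and 3.05 to 5.83 CPM overlapped. Over the 31 genes the differences lay between -0.30 and 0.13 under cisplatin and between -0.15 and 0.36 under PBS. The 95% interval that reached farthest from 0 was that of Hoxa11 under cisplatin, at -0.59, and that of Hoxa2 under PBS, at 0.83. Those of other genes were narrower, such as Hoxa9 at -0.16 to 0.10 under cisplatin and -0.19 to 0.08 under PBS.

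The cisplatin response in HET minus that in WT was called for no Hox gene by edgeR, DESeq2 or limma voom, nor for any other gene by edgeR (0% of 19268). At an unadjusted p under 0.05, 3 Hox genes passed, beside 5.6% of all genes: Hoxa11 at -0.54 ± 0.21, Hoxd10 at -0.34 ± 0.15 and Hoxb8 at -0.30 ± 0.14 (SE, adjusted p = 0.788, 0.853 and 0.882). The median over the 31 genes was -0.11, between -0.54 and 0.22, and the intervals reached at most 0.97 from 0. Genes called in 1 genotype alone, such as Hoxd8, Hoxd10 and Hoxa5 in WT or Hoxc11 in HET, are therefore not shown to respond differently. Leaving out the 5 libraries that go against their genotype label gave no Hox call in any of these 3 contrasts.

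**Figure D5:**
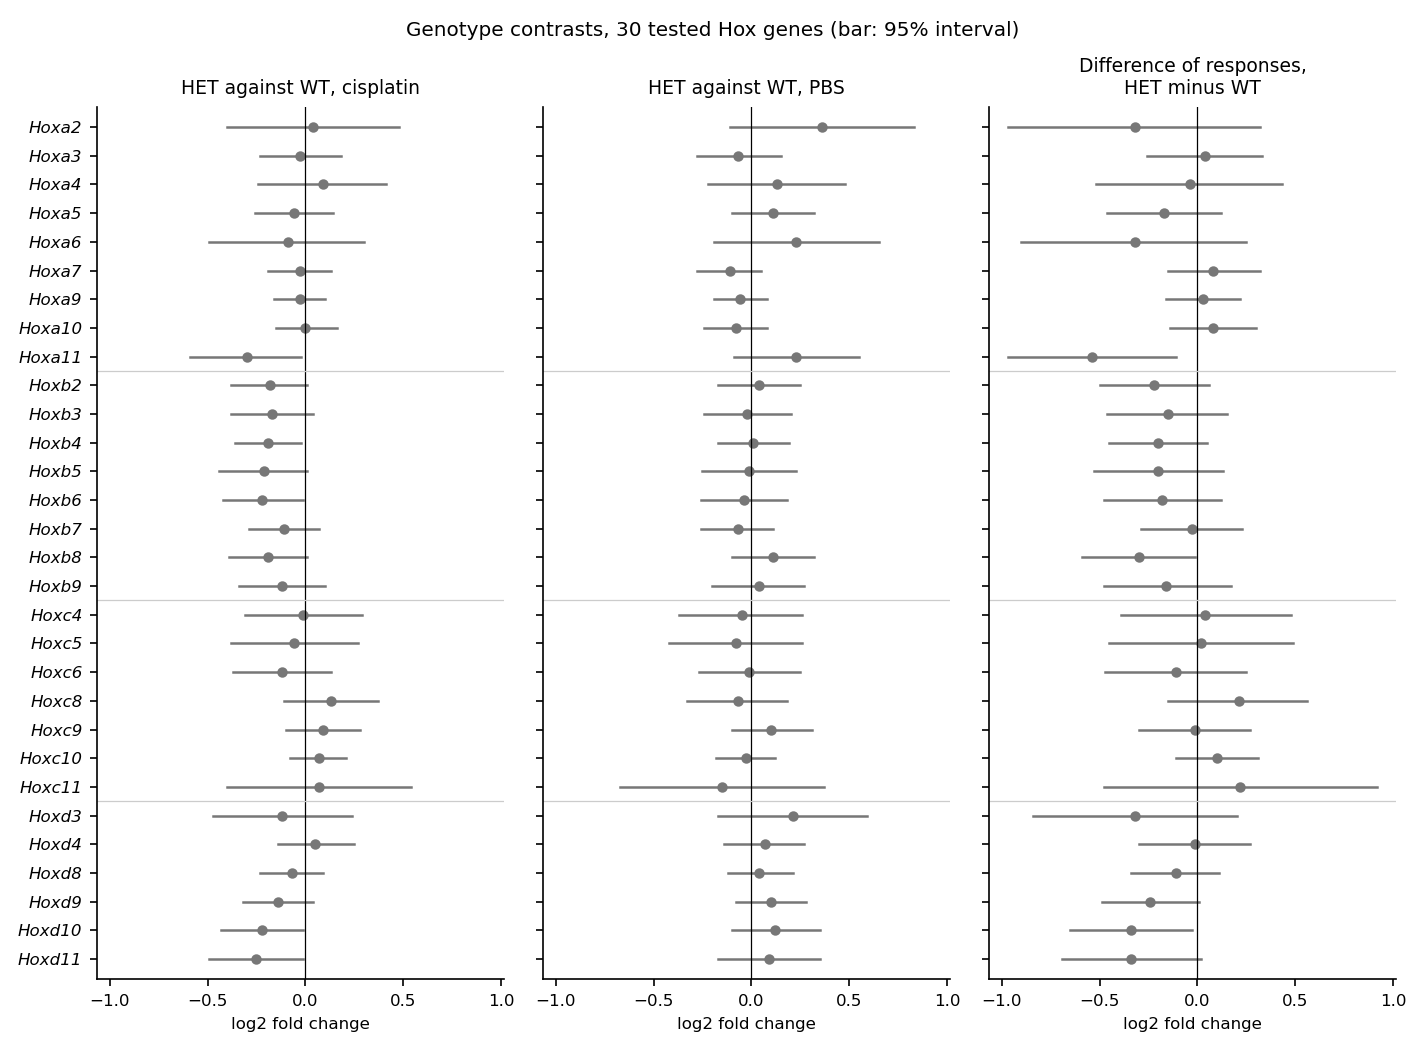
Log2 differences with 95% intervals for 30 of the 31 tested Hox genes in 3 contrasts, from left to right HET against WT under cisplatin, HET against WT under PBS, and the cisplatin response in HET minus that in WT. All points are grey, as no adjusted p was under 0.05, and the lowest point is Hoxa11 at -0.54 in the right panel.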

How the data were processed

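Kidney RNA was sequenced from 31 mice. Per the labels' protocols, RNA of integrity number above 8 was made into libraries with the KAPA mRNA HyperPrep kit. The submitters' processing notes name featureCounts, STAR, fastp, mm10 and GRCm38. No source used here states versions or the strand setting. The authors deposited expected counts (not normalized, with 12.52% not whole, in 12 of the 39 Hox genes among others), TPM and FPKM for each gene and library. The deposited FPKM were a constant multiple of the deposited TPM within each library (deviating by up to 0.164% where TPM exceeded 5), so they were left out.

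Expected counts were rounded and tested in R 4.3.3 with edgeR 4.0.16 by its quasi-likelihood F test, after filterByExpr on the groups and with TMM scaling and a prior count of 0.125. There was 1 model of 4 group means over all 31 libraries with 5 contrasts, and Benjamini-Hochberg adjustment ran over the 19268 genes tested. CPM are counts scaled to a TMM-adjusted library total of 1000000. Labels do not say whether animals were caged or processed together, so p-values measure the spread between these libraries. DESeq2 1.42.0, limma 3.58.1, other scalings, filters and sample sets were alternatives. The fits were tested on simulated counts in which few genes changed, as many up as down. Those counts held no shift like the one between TMM and library totals, so they cannot check the choice of scaling. Coordinates and exon overlaps are from GENCODE M21 (GRCm38), in which all 39 members were found, and promoters from RefSeq (GRCm38.p6). All Hox genes are named except 1 tested gene, which, like 1 cofactor, is counted but not reported here, with ranges in full for those of at least 1 CPM in some group; of other lists up to 3 members with the smallest p are named, and exceptions are marked. The members and lists were chosen with earlier results of these data known.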

Additional observations from a re-analysis of the deposited data

Results flagged for a closer look

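In 124 sets of a tested Hox gene and a group, 7 held 1 library whose distance to the next was large for the range of its group (Dixon's test at the 95% level), where chance flags about 1 in 20. Hoxa6 had high libraries in 3 groups: HET PBS 6 at 2.81 CPM (the others at 1.1 to 1.7), WT cisplatin 1 at 2.8 CPM (1.43 to 1.8) and WT PBS 7 at 2.26 CPM (0.866 to 1.51). Hoxc4 was high in WT cisplatin 7 at 5.05 CPM (4.17 to 4.5), and Hoxc9 was low in WT PBS 5 at 3.59 CPM (4.68 to 5.58). WT cisplatin 6 was low for Hoxb9 at 33.8 CPM (53.3 to 65.5) and for Hoxd11 at 3.51 CPM (5.35 to 6.95), and this library also stood nearest to PBS among WT cisplatin libraries on the first principal component.

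Below the low-count filter, 3 genes of paralog group 13 had reads in cisplatin kidneys and at most 1 in PBS kidneys. Hoxc13 had 37 counts in HET cisplatin and 61 in WT cisplatin, Hoxa13 had 27 and 18, and Hoxd13 had 3 and 11.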

How the results depend on the processing

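Scaling moved the counts of called Hox genes, and the other choices did not by over 1.5 times. By library totals, log2(TPM + 1) and log2(TPM + 0.1) in limma, 27, 29 and 29 genes were higher and 0 lower in HET, and 28 higher and 1 lower in WT each time. Among all 19268 tested genes, 11992, 12321 and 12379 were then higher in HET and 11831, 12055 and 12096 in WT. Those called lower numbered 2400, 1983 and 2006 in HET and 2862, 2439 and 2463 in WT. Leaving out each library in turn gave 14 to 17 higher and 3 to 4 lower in HET, 17 to 20 higher and 4 to 4 lower in WT, and 0 to 0 in the genotype contrasts and the interaction, either way. In the order library totals, log2(TPM + 1), log2(TPM + 0.1), signs turned in HET for Hoxa9 (0.12, 0.10, 0.11), Hoxa10 (0.06, 0.16, 0.17), Hoxc6 (0.35, 0.40, 0.45), Hoxc10 (0.28, 0.30, 0.34) and Hoxd9 (0.24, 0.28, 0.31), and in WT for Hoxa9 (0.07, 0.01, 0.02) and Hoxc10 (0.17, 0.18, 0.21), with Hoxa10 in WT at 0.03 on both TPM scales. These scales divide by the library total, which sets the shift. The paralog pairs that passed numbered 13 to 17 in HET and 15 to 20 in WT over a pseudocount of 2, only animals numbered in the 600s, and leaving out the 5 libraries against their label or the 2 cisplatin libraries nearest PBS. The pseudocount and the last omission were chosen after seeing the data. Depth limits Hoxc11 and the untested members. No paired analysis was possible because every animal number occurs once and replicate numbers follow accession order.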
